A study of Mus musculus with 6 samples.

Results

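The fatty acid elongases and desaturases of brown adipose tissue (BAT) were examined in wild-type and Letmd1 KO mice. The group was set by gene symbol and holds 10 of the 23282 genes listed in the count files. It comprises the elongases Elovl1, Elovl3, Elovl4, Elovl5, Elovl6 and Elovl7, the desaturases Fads1, Fads2 and Fads3, and the dehydratase Hacd2. All 10 were found, each listed once. BAT was taken from male C57BL/6N mice at 5 weeks of age, 3 of them wild type and 3 lacking Letmd1, which encodes a protein of the mitochondrial matrix. The KO mice carried a knockout-first allele in all tissues, in which a lacZ and neomycin resistance cassette sits in an early intron, and they descend from 1 embryonic stem cell clone. RNA was read by QuantSeq from mRNA 3′ ends, and levels of different genes can therefore be compared without a correction for transcript length. Letmd1 itself was counted 5658, 6490 and 5266 times in wild-type BAT and 0, 0 and 1 times in Letmd1 KO BAT.

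Fatty acids made in the cytosol or taken from food are lengthened in the endoplasmic reticulum by a cycle of condensation with malonyl-CoA, reduction, dehydration and a second reduction. The Elovl enzymes carry out the condensation and set which chain is lengthened, and the Hacd enzymes carry out the dehydration. Desaturases introduce double bonds, the Scd enzymes into saturated chains and the Fads enzymes into chains that mostly already hold double bonds. In BAT these reactions shape the triglycerides of the lipid droplets, the phospholipids of mitochondria and the sphingolipids, and Elovl3 and Elovl6 are known for their part in the tissue's thermogenic lipid supply.

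The starts of these genes are shown for 3 members that were lower in Letmd1 KO BAT and for Fads3, which was higher, so that the upstream sequence can be set beside the direction of change. The RefSeq windows of 250 bases before the start were given for 8 of the 10 members, on GRCm38.p6, and were cut where they reached the gene model in GENCODE vM21. Elovl3 and Fads1 were not among them. The windows lie at chr3:129532136-129532354 for Elovl6, chr9:77917115-77917363 for Elovl5, chr16:35022171-35022420 for Hacd2 and chr19:10041298-10041547 for Fads3, all on the plus strand. Capitals mark the E-box CACGTG, the CCAAT box CCAAT and the GC box GGGCGG, read on both strands.
Elovl6: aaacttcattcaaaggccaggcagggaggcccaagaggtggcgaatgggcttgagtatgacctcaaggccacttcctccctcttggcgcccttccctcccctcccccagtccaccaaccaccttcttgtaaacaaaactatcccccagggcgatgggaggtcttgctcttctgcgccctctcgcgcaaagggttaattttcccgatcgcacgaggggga
Elovl5: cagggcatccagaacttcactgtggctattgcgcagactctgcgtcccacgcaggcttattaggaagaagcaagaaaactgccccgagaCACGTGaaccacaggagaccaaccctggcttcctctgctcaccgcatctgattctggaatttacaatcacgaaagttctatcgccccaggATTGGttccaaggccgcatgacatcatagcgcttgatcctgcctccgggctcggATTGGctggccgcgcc
Hacd2: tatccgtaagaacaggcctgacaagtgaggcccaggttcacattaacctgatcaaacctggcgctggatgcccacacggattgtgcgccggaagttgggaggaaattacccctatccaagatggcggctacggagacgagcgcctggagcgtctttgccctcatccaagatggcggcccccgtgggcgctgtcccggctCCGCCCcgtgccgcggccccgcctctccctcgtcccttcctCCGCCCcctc
Fads3: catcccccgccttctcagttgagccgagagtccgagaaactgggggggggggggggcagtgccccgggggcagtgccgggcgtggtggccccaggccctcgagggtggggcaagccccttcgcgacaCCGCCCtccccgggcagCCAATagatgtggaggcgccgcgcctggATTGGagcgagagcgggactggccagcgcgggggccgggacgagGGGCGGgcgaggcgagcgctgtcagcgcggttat

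The Elovl5 window held an E-box 161 bases before the start and CCAAT boxes 71 and 17 bases before it. The Fads3 window held 2 CCAAT boxes and 2 GC boxes, the Hacd2 window held 2 GC boxes, and the Elovl6 window held no match. Among 32851 mouse windows of the same length, 6.02% held the E-box, 33.8% the CCAAT box and 32.7% the GC box. The sterol response element TCACNCCAC was found in 1.05% of all windows, the amino acid response element TGATGNAA in 3.45%, and neither in any window of a member. The window before Elovl1, which also rose and is not shown, held 5 GC boxes and 1 CCAAT box that overlapped a GC box. Another Elovl1 window, inside the gene, held 2 GC boxes. A match describes letters, not a bound site.

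Of the 10 genes, 8 had enough counts to be tested, 4 of these were lower in Letmd1 KO BAT and 3 were higher. Elovl3, Elovl6, Hacd2 and Elovl5 fell, and Fads3, Fads1 and Elovl1 rose. Elovl7 did not pass the test, and Elovl4 and Fads2 had too few counts. Genes were tested by the quasi-likelihood method of edgeR, with p-values adjusted (Benjamini-Hochberg) over all 12995 genes tested and a threshold of 0.05. The test called 46.0% of all genes, 22.3% lower and 23.7% higher, so the 7 called members stood in a tissue where many genes changed. The values of the genotypes did not overlap for these 7 members, as for 57.3% of all genes tested. The median log2 fold change was -0.27 over the tested members and 0.033 over all genes tested, and with scaling by library size alone these were 0.15 and 0.45. The same 7 members kept their call and direction under every alternative tried.

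**Figure D1:**
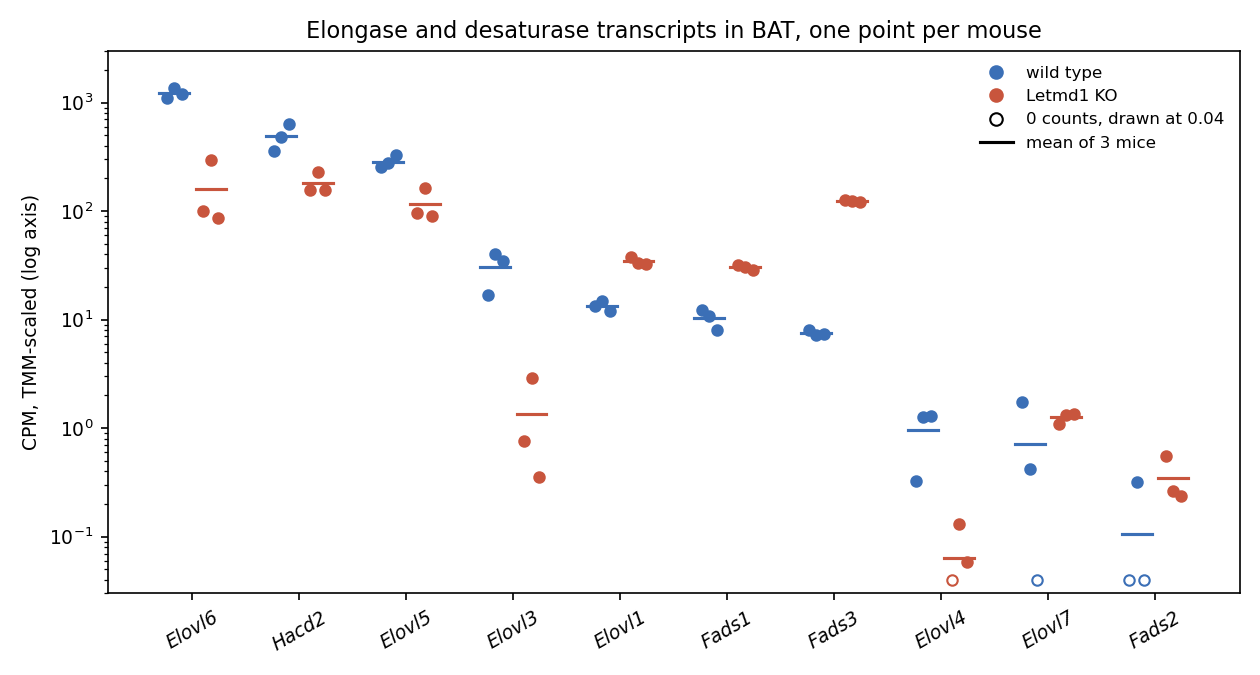
Level of each elongase and desaturase in CPM (TMM-scaled, log axis), one point per mouse, blue for wild type and red for Letmd1 KO, with a line at the mean of 3 mice and open points for mice with 0 counts. The blue and red points are apart for Elovl6, Hacd2, Elovl5, Elovl3, Elovl1, Fads1, Fads3 and the low-count Elovl4, and overlap for Elovl7 and Fads2.

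Elovl6, the elongase that converts palmitate to stearate and palmitoleate to vaccenate, was the most counted of the 10 genes in wild-type BAT. The gene spans 129532355 to 129638495 of chromosome 3 (GRCm38, plus strand). In the annotation, 4.39% of the 75-base stretches in its last 500 bases recur in Gm11295. Elovl6 had 1107, 1368 and 1194 CPM (counts scaled by TMM to libraries of one common size) in the wild-type mice, and 99.3, 296 and 87.2 CPM in the KO mice. All KO mice were far below all wild-type mice, and KO mouse 2 was the highest of the KO mice. The mean was 1223 ± 133 CPM in wild-type BAT and 161 ± 117 CPM in Letmd1 KO BAT (SD, n = 3), and Elovl6 was 7.60-fold lower (log2 fold change -2.93 ± 0.43 SE, adjusted p = 0.000515, edgeR). Without KO mouse 2 the log2 fold change was -3.71, and it was between -3.71 and -2.52 over the alternatives.

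Elovl3, the elongase of saturated and monounsaturated chains that cold exposure is known to induce in BAT, had the largest fall of the group. The gene spans 46131897 to 46135694 of chromosome 19, plus strand. Wild-type BAT gave 157, 382 and 268 counts, against 7, 22 and 6 in Letmd1 KO BAT. Wild-type mouse 1 was lower than the other wild-type mice, at 16.9 CPM against 40.5 and 34.9, but stayed well above the KO mice at 0.769, 2.91 and 0.353 CPM. The mean of 30.8 ± 12.3 CPM fell to 1.34 ± 1.37 CPM, a 22.9-fold difference (log2 fold change -4.74 ± 0.59 SE, adjusted p = 0.000221, edgeR). The last 10 bases of Elovl3 overlap Pitx3 on the opposite strand, and Pitx3 had at most 7 counts in any mouse.

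Elovl5, which lengthens polyunsaturated chains made from linoleic and linolenic acid, fell less. Its wild-type levels of 255, 275 and 328 CPM lay above the KO levels of 96.5, 163 and 89.6 CPM, with KO mouse 2 again the highest KO mouse. The means were 286 ± 37.9 and 116 ± 40.6 CPM, and Elovl5 was 2.46-fold lower (log2 fold change -1.30 ± 0.22 SE, adjusted p = 0.00122, edgeR). The gene spans 77917364 to 77984519 of chromosome 9, plus strand.

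Hacd2, a broadly used dehydratase of the elongation cycle, fell by a similar amount. Its levels were 359, 482 and 637 CPM in the wild-type mice and 156, 230 and 155 CPM in the KO mice. The wild-type mice spread widely, yet the lowest of them was above the highest KO mouse. The mean fell from 493 ± 139 to 180 ± 42.5 CPM, 2.73-fold (log2 fold change -1.45 ± 0.23 SE, adjusted p = 0.000771, edgeR). The gene spans 35022428 to 35109177 of chromosome 16, plus strand.

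Elovl1, the elongase of saturated very long chains used in sphingolipids, moved the other way. Its counts were 125, 140 and 92 in wild-type BAT and 344, 250 and 557 in Letmd1 KO BAT, where the last library was the deepest, and the KO levels were 37.8, 33.1 and 32.8 CPM. The mice of each genotype were close together, and every KO mouse was above every wild-type mouse. Elovl1 rose 2.57-fold, from 13.4 ± 1.42 to 34.5 ± 2.82 CPM (log2 fold change 1.36 ± 0.15 SE, adjusted p = 8.98e-05, edgeR). The last 53 bases of Elovl1, on chromosome 4 from 118428093 to 118432953, overlap the cell cycle gene Cdc20 on the opposite strand. Cdc20 itself was counted 22, 16 and 13 times in wild-type BAT and 90, 57 and 108 times in Letmd1 KO BAT. Whether the counting used the strand is not given in the sources used here, so reads in the overlap cannot be assigned.

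Elovl4 and Elovl7 were near the limit of counting. Elovl4, which makes the ultra-long chains of skin and retina, was counted 3, 12 and 10 times in wild-type BAT and 0, 1 and 1 times in Letmd1 KO BAT. All KO mice were under a floor of 3 counts, the most that a reading of 0 leaves possible at 95% counting error. With the KO mice set at the mean floor of their libraries, the wild-type mean was 3.21-fold higher. This is not a strict lower bound, since KO mice 2 and 3 read 1 count and wild-type mouse 1 was itself at the floor. Without a filter on low counts it passed the test (adjusted p = 0.0175, edgeR). Elovl7, which lengthens saturated chains, was counted 16, 4 and 0 times in wild-type BAT and 10, 10 and 23 times in Letmd1 KO BAT. The genotypes overlapped, and the log2 fold change of 0.76 ± 0.81 SE did not pass the test (adjusted p = 0.472, edgeR), and it was 2.40 without wild-type mouse 1 (adjusted p = 0.0575). The wild-type counts differed widely between libraries of similar size. Elovl4 spans 83778692 to 83806277 of chromosome 9 on the minus strand, and Elovl7 spans 108214404 to 108285683 of chromosome 13 on the plus strand.

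Of the members that rose, Fads3 rose most. Fads3 is the least characterised of the 3 and acts on sphingoid bases. Its wild-type levels of 8.09, 7.21 and 7.43 CPM stood against KO levels of 125, 123 and 122 CPM. The KO mice were all within a narrow range, far from the wild-type mice. Fads3 rose 16.3-fold, from 7.58 ± 0.455 to 124 ± 1.69 CPM (log2 fold change 4.02 ± 0.12 SE, adjusted p = 1.27e-07, edgeR), and its log2 fold change was between 3.93 and 4.45 over the alternatives.

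Fads1, the desaturase that makes arachidonic and eicosapentaenoic acid, rose as well. It had 12.3, 10.7 and 8.08 CPM in the wild-type mice and 31.6, 30.3 and 28.8 CPM in the KO mice, with no overlap. The mean went from 10.4 ± 2.12 to 30.3 ± 1.42 CPM, 2.92-fold (log2 fold change 1.54 ± 0.17 SE, adjusted p = 0.000125, edgeR). Fads2, which takes the first step of the same route from linoleic and linolenic acid, was counted 0, 3 and 0 times in wild-type BAT and 5, 2 and 4 times in Letmd1 KO BAT. Both genotypes were at or near the floor, and no fold is given.

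The 3 Fads genes form a cluster on chromosome 19. Fads3 lies on the plus strand from 10041569 to 10060110, Fads2 on the minus strand from 10062765 to 10101746, and Fads1 on the plus strand from 10182888 to 10196877. Fads2 is thus the middle gene, 2654 bases from Fads3 and 81141 bases from Fads1, and it was hardly counted in either genotype while both neighbours rose. In the annotation, none of the 75-base stretches in the last 500 bases of the 3 genes recurred in another gene. The log2 ratio of Fads1 to Fads2 counts, with 0.5 counts added to each, was 6.55 ± 1.53 in wild-type BAT and 6.33 ± 0.552 in Letmd1 KO BAT (SD, n = 3), a difference of -0.22 (p = 0.8, two-sided exact permutation test). This difference turned to 0.79 with 2 counts added.

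The make-up of the elongase counts was compared next, since a share within a mouse does not depend on how libraries are scaled. Elovl1 to Elovl7 together were counted 12939, 16029 and 12045 times in wild-type BAT and 2143, 3751 and 3593 times in Letmd1 KO BAT. Elovl6 held 79.4, 80.5 and 76.0% of them in wild-type BAT, against 42.2, 59.6 and 41.3% in Letmd1 KO BAT. KO mouse 2 lay nearest the wild-type mice, and the genotypes did not overlap. The mean share of Elovl6 went from 78.6 ± 2.32% to 47.7 ± 10.3%, that of Elovl5 from 18.4 ± 2.37% to 38.7 ± 5.15%, and that of Elovl1 from 0.868 ± 0.101% to 12.7 ± 5.27% (SD, n = 3). Elovl3 went from 1.94 ± 0.635% to 0.360 ± 0.212%. Each of these 4 differences had p = 0.1 by a two-sided exact permutation test, the smallest that 3 mice against 3 can give, and 0.14 after adjustment over the 7 elongases.

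**Figure D2:**
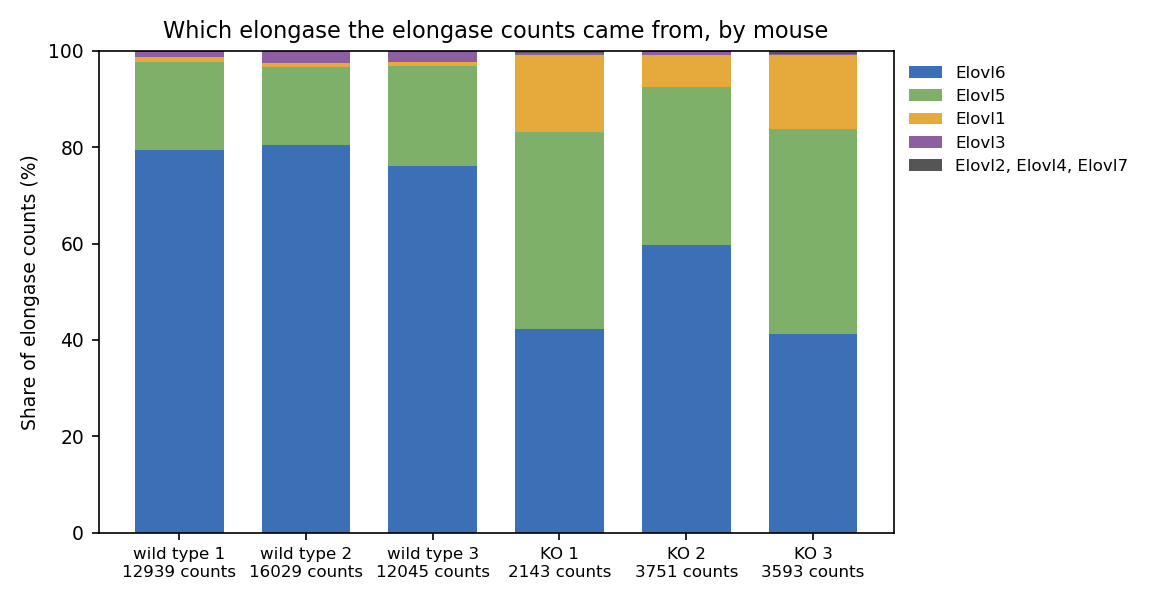
Share of the summed Elovl1 to Elovl7 counts held by each elongase in each mouse, as a percentage stacked to 100, with the total below each bar. Elovl6 takes 76.0% to 80.5% in the wild-type mice and 41.3% to 59.6% in the Letmd1 KO mice, where Elovl5 and Elovl1 take more.

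Ratios between elongases showed the same divergence. The log2 ratio of Elovl5 to Elovl6 counts was -2.10 ± 0.227 in wild-type BAT and -0.29 ± 0.497 in Letmd1 KO BAT. Elovl1 stood below Elovl3 in the wild-type mice, with a log2 ratio of -1.10 ± 0.673, and above it in the KO mice, with 5.14 ± 1.51. Elovl6 also gained on Elovl3, since Elovl3 fell further, from 5.40 ± 0.545 to 7.13 ± 0.628 on the log2 scale. The genotypes did not overlap in any of these 3 ratios (each p = 0.1, two-sided exact permutation test, 0.133 after adjustment over 4 ratios).

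The other enzymes of the elongation cycle were lower in part. Of 7 genes listed, 5 were tested, 3 fell and 1 rose, where 22.3% of all genes tested fell and 23.7% rose. Hsd17b12, the ketoacyl-CoA reductase of the cycle, had 381, 365 and 461 CPM in the wild-type mice and 109, 165 and 105 CPM in the KO mice (log2 fold change -1.67 ± 0.18 SE, adjusted p = 0.000106, edgeR). Tecr, the enoyl-CoA reductase that completes the cycle, fell from 321 ± 30.4 to 140 ± 21.1 CPM (log2 fold change -1.19 ± 0.14 SE, adjusted p = 0.000128, edgeR), and 1.88% of its 75-base stretches recur in AC159187.1. The main reductases thus fell along with Hacd2 and Elovl6. Among the other dehydratases, Hacd4 rose from 3.10 ± 0.987 CPM to 8.57, 15.6 and 7.53 CPM in the KO mice (adjusted p = 0.00364, edgeR), though 11.9% of its 75-base stretches recur in Focad. Hacd3 had 40.4 ± 3.11 and 37.3 ± 2.49 CPM (adjusted p = 0.480, edgeR). Hacd1 fell from 34.7 ± 2.64 to 25.7 ± 3.51 CPM (log2 fold change -0.43, adjusted p = 0.0363, edgeR), and 32.6% of its 75-base stretches recur in Gm11451. This call was lost under library-size scaling, under a stricter filter, and without wild-type mouse 1 or 3 or KO mouse 1 or 2, with adjusted p between 0.0511 and 0.957. Elovl2, an elongase of polyunsaturated chains found mostly in liver, and Tecrl had at most 4 counts in any mouse.

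**Figure D3:**
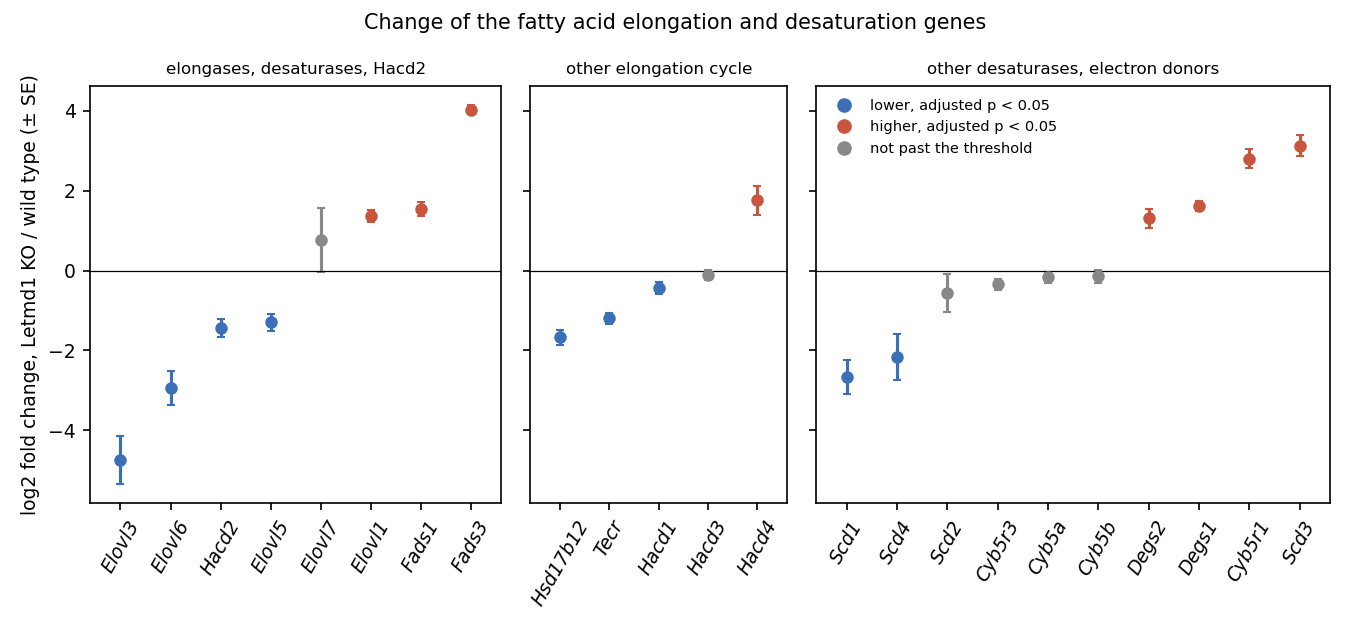
Log2 fold change (Letmd1 KO against wild type, bars show SE) of the tested members, the other elongation cycle genes, and the other desaturases with their electron donors. Blue points passed the test as lower, red as higher and grey did not pass. Members run from Elovl3 at -4.74 to Fads3 at 4.02.

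Scd1, the stearoyl-CoA desaturase that makes oleate and palmitoleate, was far more counted than any Fads gene. It had 15521, 18200 and 10755 CPM in the wild-type mice and 1418, 4161 and 1461 CPM in the KO mice, and fell 6.32-fold (log2 fold change -2.66 ± 0.43 SE, adjusted p = 0.000966, edgeR). Its paralog Scd3 moved the other way, from 6.41 ± 2.62 to 56.4 ± 7.86 CPM (log2 fold change 3.13 ± 0.26 SE, adjusted p = 2.22e-05, edgeR). Of the 75-base stretches in their last 500 bases, neither shared any with another gene. Scd2 had 47.1, 172 and 267 CPM in the wild-type mice against 131, 105 and 93.5 CPM in the KO mice, which overlapped (log2 fold change -0.56, adjusted p = 0.356, edgeR). Without wild-type mouse 1, the low one, Scd2 passed the test at -1.01 (adjusted p = 0.00733, edgeR), and without wild-type mouse 3, the high one, it was at -0.0075 (adjusted p = 0.990). Scd4 was at 1.71 ± 0.561 and 0.386 ± 0.237 CPM (log2 fold change -2.16, adjusted p = 0.0127, edgeR), a call lost without KO mouse 3 (adjusted p = 0.0675), and it had too few counts for the test without wild-type mouse 2.

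Degs1, which introduces the double bond of ceramide, rose from 54.5 ± 6.50 to 167 ± 5.25 CPM (log2 fold change 1.61 ± 0.12 SE, adjusted p = 1.36e-05, edgeR). Degs2, which also hydroxylates sphingoid chains, rose from 8.14 ± 1.75 to 20.4 ± 4.46 CPM (adjusted p = 0.00159, edgeR), but 16.0% of its 75-base stretches recur in Evl, whose log2 fold change was 1.32. The sphingolipid desaturases therefore moved in the same direction as Fads3. Of the electron donors, the cytochrome b5 reductase Cyb5r1 rose from 62.1 ± 7.73 to 433 ± 143 CPM (log2 fold change 2.80, adjusted p = 3.18e-05, edgeR). Its relative Cyb5r3, with 127 ± 16.4 and 100 ± 14.5 CPM, and the cytochromes Cyb5a and Cyb5b did not pass the test (adjusted p = 0.0730, 0.362 and 0.499, edgeR). Cyb5r3 passed it as lower without wild-type mouse 3 (adjusted p = 0.0250, edgeR) or KO mouse 2 (0.0311). Fads6 had at most 2 counts in any mouse. In all, 10 of the 11 genes of this kind were tested, 2 fell and 4 rose, beside 22.3% and 23.7% of all genes tested.

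Most genes of malonyl-CoA and palmitate metabolism fell. Beside this list and the next, 22.3% of all genes tested fell and 23.7% rose. Of 9 such genes, 8 fell, none rose, and the median log2 fold change was -2.87. The 8 include Mlycd, the decarboxylase that breaks malonyl-CoA down, at -1.03 (adjusted p = 9.13e-05, edgeR). Fasn, the fatty acid synthase, went from 19428 ± 1729 to 1621 ± 1502 CPM (log2 fold change -3.58, adjusted p = 0.000898, edgeR), and the least negative was the malic enzyme Me1 at -0.88 (adjusted p = 0.0700, edgeR), which passed without KO mouse 2 (-1.55, adjusted p = 2.2e-05) and without a filter on low counts (adjusted p = 0.0319). Of 6 tested genes that activate fatty acids to acyl-CoA, 4 fell and 1 rose, from Acsl5 at -3.70 (adjusted p = 7.71e-06, edgeR) to Acsl4, which prefers arachidonic acid, at 1.35 (adjusted p = 0.000179, edgeR). Under library size alone, 2 of these genes fell and 1 rose.

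Of 15 transcriptional regulators of these genes, 4 fell and none rose, while scaling by library size alone gave 2 that fell and 3 that rose, and DESeq2 gave 7 that fell. Beside this list and those below, 22.3% of all genes tested fell and 23.7% rose. Mlxipl, which encodes the carbohydrate-sensing factor ChREBP, went from 340 ± 61.8 to 70.3 ± 8.50 CPM (log2 fold change -2.27, adjusted p = 1.09e-05, edgeR), and Mbtps2, a protease that activates SREBP, was the most positive at 0.38 (adjusted p = 0.225, edgeR), at 0.58 without wild-type mouse 2, and passed as higher under library size alone (0.80, adjusted p = 0.0204). Srebf1, named after its values were seen because it encodes the main lipogenic SREBP, was at -0.26 on the log2 scale (adjusted p = 0.502, edgeR). Its sign turned without wild-type mouse 3 (0.26), which had 291 CPM against 126 and 123 CPM in the other wild-type mice, under library size alone (0.17) and under quantile normalization (0.080). Among 9 tested users of very long-chain and polyunsaturated acyl-CoA, 3 fell and 1 rose, from the acyltransferase Agpat3 at -1.35 (adjusted p = 3.05e-05, edgeR) to the acyltransferase Mboat1 at 3.36 (adjusted p = 6.66e-05, edgeR). Under library size alone, 1 of these users fell and 2 rose. Also, 2 rose under quantile normalization, without a filter, at a mean of at least 50 counts, and without KO mouse 2. Without wild-type mouse 1, 4 of them fell. Of 12 genes for peroxisomal chain shortening, 8 fell and none rose. Under library size alone 5 fell, and 10 fell without wild-type mouse 3 or KO mouse 2. The 12 ranged from Slc27a2, a very long-chain acyl-CoA synthetase, at -6.15 (adjusted p = 1.54e-05, edgeR) to the transporter Abcd2 at -0.18 (adjusted p = 0.790, edgeR). Without KO mouse 2, whose Abcd2 level of 73.4 CPM stood above all other mice, Abcd2 was at -1.12 (adjusted p = 0.0118, edgeR), and it was at 0.014 without KO mouse 1, 0.25 without KO mouse 3 and 0.22 under library size alone.

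KO mouse 2 stood apart within its group for the members that fell. It was the highest KO mouse for all 4 members that fell, at 5.19 times the mean of the other KO mice for Elovl3, 3.17 times for Elovl6, 1.75 times for Elovl5 and 1.47 times for Hacd2. The same ratio was 2.89 for Scd1 and 4.45 for Fasn, and was 0.938 for Elovl1, 1.002 for Fads1 and 0.991 for Fads3. The members that rose were thus close to one level in all KO mice, while those that fell differed among them. KO mouse 2 was the highest KO mouse for 22 of 36 genes that fell in all the pathway lists together. Over all genes that fell, it was the highest for 37.1%, against 23.4% for KO mouse 1 and 39.5% for KO mouse 3. Over all genes that rose, it was the highest for 45.6%, against 30.1% for KO mouse 1 and 24.4% for KO mouse 3. KO mouse 2 also differed from the other KO mice outside these lists, in both directions. Its Adipoq level was 1368 CPM against 502 and 563 CPM, and its Ucp1 level was 255 CPM against 415 and 476 CPM. Even so, KO mouse 2 stayed below every wild-type mouse for each member that fell.

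**Figure D4:**
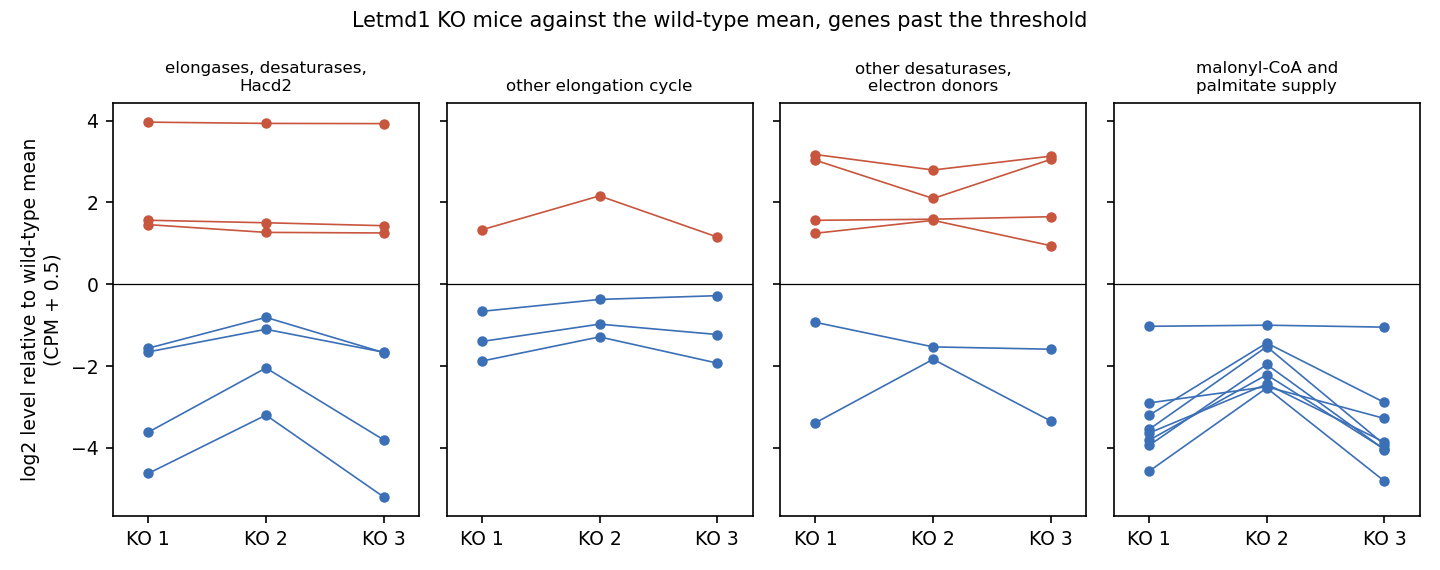
Level of each called gene in the 3 Letmd1 KO mice relative to the wild-type mean, as a log2 difference after adding 0.5 CPM, in 4 gene lists. Lines join the points of 1 gene, blue for genes that fell and red for genes that rose. KO mouse 2 is the highest for the 4 members that fell, and the 3 that rose are nearly level across mice.

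Among the genes whose levels ran most like those of Elovl3 over the 6 mice were Nsdhl (r = 0.998), Ccdc90b (r = 0.997), Usp46 (r = 0.995) and Fbxo8 (r = 0.995), by Pearson's r of log2 CPM. They were ranked among 11922 genes with a mean of at least 20 counts. The 6 points share 2 genotypes, and 476 genes had an r above 0.95, so the ranking is a description only.

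Markers of cell types moved with the genotype. Of 9 brown adipocyte markers 7 fell, with Ucp1 at 6328 ± 519 and 382 ± 114 CPM. Ebf2 and Zic1 did not pass the test (log2 fold changes 0.016 and 0.34, adjusted p = 0.937 and 0.468, edgeR). The summed level of the 9 was 39274 to 44785 CPM in the wild-type mice and 11834 to 15724 CPM in the KO mice. Fabp4 was the largest part of this sum, at 28020 ± 2261 and 10462 ± 2068 CPM. All 10 macrophage markers rose (summed 170 to 238 CPM against 1348 to 3221 CPM), and 9 passed under DESeq2. Lgals3 was the largest part of this sum in KO mice 1 and 3, at 591 and 309 CPM. In KO mouse 2 it was Gpnmb, at 1014 CPM against 63.1 and 41.0 CPM in the other KO mice. All 6 fibroblast markers rose (1344 to 1872 against 3801 to 6545 CPM), as did 5 of 6 Schwann cell markers (299 to 318 against 423 to 592 CPM). Of the Schwann cell markers, 4 passed under alternatives that include quantile normalization and the replicate number as a block, and 6 under library size alone. Of 6 endothelial markers 3 fell (459 to 566 against 292 to 384 CPM), with 1 that fell and 1 that rose under library size alone, and 1 that fell without wild-type mouse 1, KO mouse 2 or KO mouse 3. Of the same 6, 2 fell under quantile normalization, with the replicate number as a block, and without wild-type mouse 2 or KO mouse 1. Skeletal muscle markers set wild-type mouse 2 apart, with Acta1 at 82.3 CPM against 0.647 and 0.391 CPM in the other wild-type mice. Of 10 such markers 2 rose (summed 2.999 to 339 against 252 to 1044 CPM), all 10 rose without wild-type mouse 2, and 9 under quantile normalization. Only 1 rose without KO mouse 1 or with the replicate number as a block. None passed under DESeq2, or without wild-type mouse 1 or 3 or KO mouse 3. Without wild-type mouse 2 the same 4 members fell and the same 3 rose. None of 5 erythroid markers passed the test (9963 to 18519 against 10001 to 13670 CPM). Ptprc, the only lymphocyte marker of 6 with enough counts, rose (summed 5.39 to 12.1 against 32.0 to 53.3 CPM), and 5 of 6 keratinocyte markers were at or under the floor in every mouse (summed 13.6 to 21.0 against 10.1 to 15.1 CPM). The part of these markers' cells in the changes of the members was not tested, and fewer cells of a type and less RNA per cell cannot be told apart in bulk tissue.

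The changes of the members were then set beside the choice of processing. TMM scaling put the median of all genes tested at a log2 fold change of 0.033, and scaling by library size alone put it at 0.45. Members moved with that shift, Elovl6 from -2.93 to -2.52 and Fads3 from 4.02 to 4.45, and the 7 called members kept their direction under both scalings. Elovl3 was between -5.89 and -4.10, Hacd2 between -1.66 and -1.03, Elovl5 between -1.62 and -0.88, Elovl1 between 1.27 and 1.78, and Fads1 between 1.38 and 1.96 over the alternatives. Elovl7 was between 0.22 and 2.40 and passed the test under none of them.

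**Figure D5:**
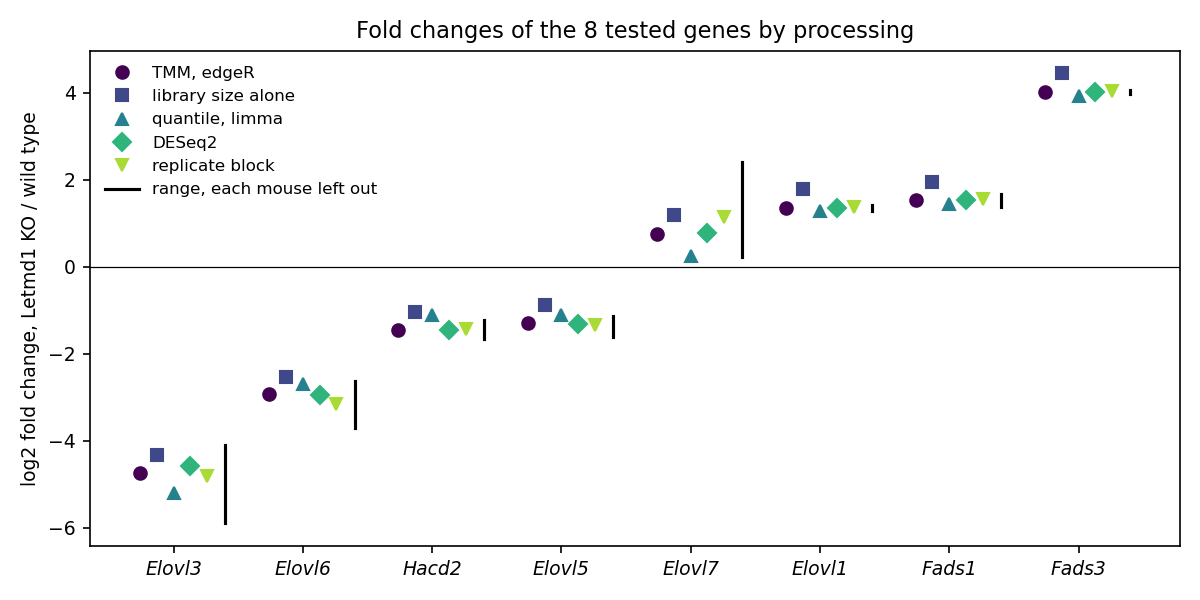
Log2 fold change (Letmd1 KO against wild type) of the 8 tested members under 5 ways of processing, as symbols, with a line for the range over fits that leave out 1 mouse each. The 7 called members stay on their side of 0, and Elovl7 spans 0.22 to 2.40.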

How the data were processed

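BAT RNA of 3 wild-type and 3 Letmd1 KO mice was sequenced as QuantSeq libraries from 500 ng of total RNA, in single reads of 75 bases. Per the labels and the study's methods, the authors aligned reads with Bowtie2 to mm10 and counted them on genes with bedtools. The deposited values are whole-number counts, 1 file per mouse, with no normalization applied. The versions, annotation and use of strand are not given in the sources used here. The quantile normalization named by the study is not in the deposited counts.

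Totals were between 6669577 and 14574273 counts per mouse, and 3 counts correspond to between 0.176 and 0.397 CPM. Mice of one genotype never matched to within counting noise (chi-square divided by its degrees of freedom, 11.9 to 36.9 over the pairs). The labels do not say whether the libraries came from separate animals. The study gives n = 3 per group, and each library is called a mouse here on that basis. The p-values measure the spread between these samples.

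Counts were tested in R 4.3.3 with edgeR 4.0.16 (quasi-likelihood test, TMM scaling, default filter with a minimum count of 10 and total of 15, Benjamini-Hochberg adjustment), for genotype only. Of 23282 genes listed, 5588 were at 0 in every mouse and 12995 passed the filter. For log2 CPM, 2 counts were added as a prior. For shares and ratios of counts the exact permutation test was used, two-sided, whose smallest p is 0.1. The alternatives were library size alone, quantile normalization with limma 3.58.1, DESeq2 1.42.0, no filter, a mean of at least 50 counts, the replicate number as a block, an adjusted p under 0.01, a prior of 2 counts in ratios, and leaving out each mouse. No member was listed more than once, so summing repeated symbols was not needed. The steps were tested on simulated data.

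Named genes were all members, Letmd1, every other elongation and desaturation gene listed, the 2 extremes of each other pathway list, and the 5 genes most like Elovl3, of which 1 is not reported here. The members and lists were chosen with earlier results of these data known. Cdc20, Pitx3, Focad and Evl were named for their overlap with a listed gene, and Gm11451, Gm11295 and AC159187.1 for shared sequence. Ucp1, Fabp4, Adipoq, Ebf2, Zic1, Lgals3, Gpnmb, Acta1 and Ptprc were named as markers and Mlycd for its role. The comparison among KO mice was chosen after the values were seen. Gene positions came from GENCODE vM21 on GRCm38 and promoter windows from RefSeq.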

Additional observations from a re-analysis of the deposited data

How the results depend on the processing

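The 7 called members kept their call and direction under every alternative. Elovl4, untested with the filter, passed without a filter and when wild-type mouse 1, KO mouse 1 or KO mouse 2 was left out, but not without KO mouse 3 (adjusted p = 0.0503). At an adjusted p under 0.01 the genes past the threshold fell from 5978 to 3939, and members stayed at 7. With each mouse left out, 4842 to 5868 genes passed. Scaling by library size alone called 7267 genes, 81.2% of them higher against 51.6% with TMM scaling. The replicate numbers did not pair the mice (correlations of deviations 0.069, -0.11 and -0.087, and mice 2 and 3 did not correlate best with their own number). With the replicate block 5599 genes and 7 members passed, Hacd1 did not (adjusted p = 0.0575), and Cyb5r3 and Me1 did (0.0367 and 0.0123).

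The log2 ratio of Fads1 to Fads2, -0.22, was 0.79 with a prior of 2 counts and between -1.07 and 0.42 with a mouse left out. Fads2 had at most 5 counts in any mouse. Under library size alone the sign turned for Hacd3 (0.31), Cyb5a (0.25), Cyb5b (0.28), Cyb5r3 (0.072), and for the median of the members (0.15), the other desaturases and donors (0.26), the users of acyl-CoA (0.050), keratinocyte markers (0.0091) and erythroid markers (0.12). Under quantile normalization it turned for Cyb5a (0.073), Cyb5b (0.19), the median of the other desaturases and donors (0.13) and erythroid markers (0.47), and without a filter for keratinocyte markers (0.71). With a mouse left out, Cyb5b was between -0.30 and 0.018 and the median of the other desaturases and donors between -0.22 and 0.0050, both positive only without wild-type mouse 3. None of these genes passed in the analysis of all 6 mice without the block, and the cause was not tested. Without KO mouse 2 the median of the malonyl-CoA and palmitate list was -3.73. The median of the members was -1.62 without KO mouse 2, -1.39 without wild-type mouse 1, -1.18 without KO mouse 1 and -1.14 without KO mouse 3, where Elovl4 was also tested, and -1.25 at a mean of at least 50 counts, where Elovl7 was not. Elovl4 and Fads2 had at most 12 counts in any mouse, too few for the test.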
